A study of Mus musculus with 36 samples.

Results

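AB2.2 mouse embryonic stem cells were compared before differentiation (day 0) and as embryoid bodies 3 days after the withdrawal of leukemia inhibitory factor (day 3). Between these days the transcripts of the factors that hold the naive pluripotent state fell, those of the formative epiblast rose, and primitive streak genes were still low. The comparison used 6 of the 36 libraries of the series, the 3 of the control line at day 0 and the 3 at day 3, chosen by their labelled genotype and time point. Of 37561 gene entries in both tables, 12202 had a mean of 1 FPKM or more over these 6 libraries and were tested. FPKM is the number of fragments per kilobase of transcript per unit of sequencing depth, so that levels of genes of different length can be compared.

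The series follows AB2.2 cells and a line derived from them, in which Cas9 with a pair of guides removed the long noncoding RNA gene that the submitters call LncCPR, as the cells form embryoid bodies and go towards cardiac mesoderm over days 0, 3, 5, 8, 10 and 12. The day 0 group is the unedited line, genotype control, grown undifferentiated in serum medium with that factor (LIF). The day 3 group is the same line 3 days after LIF was withdrawn and the cells were hung in drops, where they gather into embryoid bodies, which were taken whole for RNA. The knockout line, grown from single sorted cells, is used here only to ask whether its day 0 to day 3 change differed. The labels do not say whether the 3 libraries of a group came from separate cultures, so the p-values measure the spread between these samples, which may be technical.

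As background, LIF binds the receptor pair Lifr and Il6st (gp130), and Janus kinases then phosphorylate Stat3, which enters the nucleus and switches on Socs3 and the naive factors Klf4 and Tfcp2l1. When LIF is removed, mouse stem cells pass from the naive state, which resembles the epiblast before implantation, to a formative state that resembles the epiblast just after it and is marked by Fgf5, Otx2 and Pou3f1. Pou5f1 and Sox2 are used in both states, and the primitive streak genes T, Mixl1 and Mesp1 are switched on only later, under Nodal and Wnt signalling.

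Each day came as a table of its own, and the scale of the libraries differed within a table, so every change was computed on the FPKM as deposited and again after each library was rescaled to a common median ratio. Control day 3 replicate 1 stood apart: its FPKM summed to 294740 against 369242 to 400674 in the other 5, its scale factor was -0.55 on the log2 scale against 0.01 to 0.16, and its depth relative to control day 0 replicate 1, read from the smallest steps in its values, was 0.646, a value that 13 of 59 low genes shared, against 0.835 to 0.908 in the others. The mitochondrial ribosomal RNA mt-Rnr2 was listed at 38464 and 49728 FPKM in control day 3 replicates 1 and 2 and at 0 in the remaining 4 libraries. Pearson's r of log2 levels across genes was 0.970 to 0.990 between libraries of the same day and 0.878 to 0.906 between days. As deposited, 3755 of the 12202 genes (30.8%) passed limma's moderated test at an adjusted p of 0.05, 1067 higher (8.74%) and 2688 lower (22%) at day 3. After rescaling 5975 passed (49%), of which 2941 were higher (24.1%) and 3034 lower (24.9%), so that the share of calls that were higher went from 28.4% to 49.2%. The median log2 fold change of all genes tested was -0.22 as deposited and 0.0026 after rescaling.

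**Figure D1:**
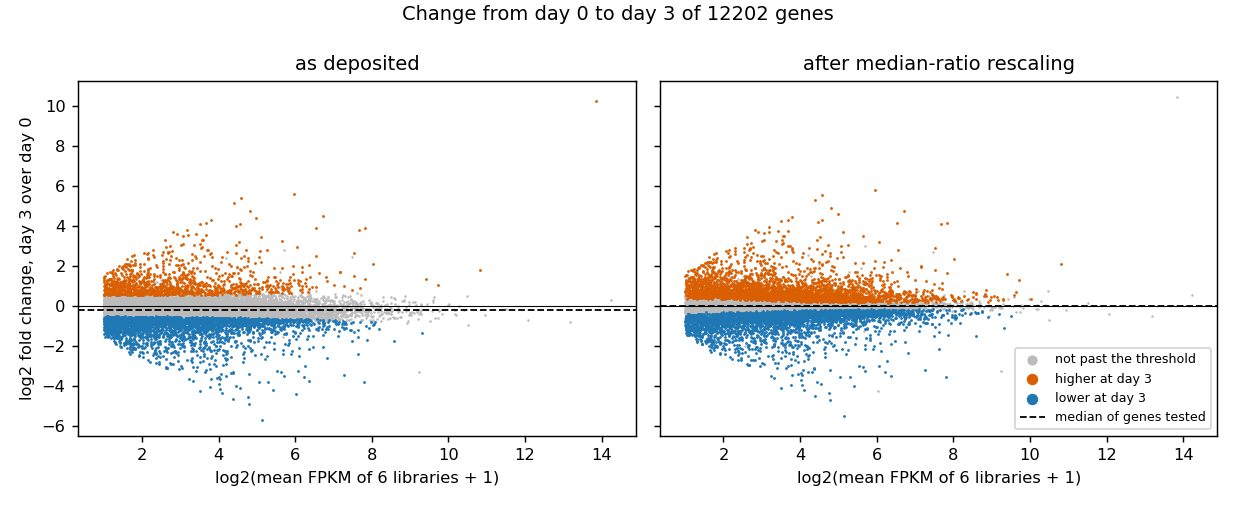
Each point is 1 of the 12202 genes tested, with log2 of its mean FPKM plus 1 over the 6 libraries on the horizontal axis and its log2 fold change from day 0 to day 3 on the vertical axis, as deposited (left) and after median-ratio rescaling (right). Colour marks genes past the adjusted p of 0.05, and the dashed median moves from -0.22 to 0.0026 while the single point above 10 on either side is mt-Rnr2.

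Below, a gene is said to have risen or fallen only where it passed with the same sign both as deposited and after rescaling, which 1050 genes did upward (8.61%) and 2482 downward (20.3%). No gene passed in opposite directions in the 2 scalings. Of these genes, 696 were more than 2-fold higher and 773 more than 2-fold lower after rescaling. Without control day 3 replicate 1, 2358 genes passed upward and 3008 downward in both scalings. The counts of the gene lists below are to be read against the 8.61% and 20.3% of all genes tested. List counts without control day 3 replicate 1 are instead to be read against those 2358 and 3008 of the 12202 genes. Log2 fold changes and standard errors (SE) are on the log2(FPKM + 1) scale, as deposited unless said otherwise, and understate the change of low genes. Of the 12202 genes tested, 953 had a mean under 1 FPKM on their lower day and so reached the minimum only through the other day. The filter itself favoured a difference in these genes. Their calls and p-values carry this limit below, whether or not it is repeated. An exact permutation test of 3 libraries against 3 cannot give a two-sided p under 0.1, so single genes were tested only within the fit across all genes. In whole embryoid bodies, fewer cells that make an RNA and less of it per cell cannot be told apart. Day and table coincide, so a difference between the tables as a whole and a difference between the days cannot be told apart either.

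Most tested genes of the LIF pathway fell. Of 8 tested genes of the receptor and relay, 6 fell and none rose, with a median log2 fold change of -0.60 after rescaling, and of 9 tested targets 8 fell and 1 rose, with a median of -2.36. Lifr, the ligand-binding receptor chain, was at 28.2, 28.5 and 27.6 FPKM at day 0 and at 6.70, 8.91 and 10.1 at day 3, which is a change of -1.62 ± 0.21 (log2, SE) with an adjusted p of 1.46e-05. Stat3, the transcription factor of the pathway, was at 23.9, 21.1 and 24.7 FPKM at day 0 and at 4.85, 5.84 and 4.46 at day 3 (-2.01 ± 0.20; adjusted p = 7.26e-07). In both genes every day 3 library was far below every day 0 library. The smaller falls were those of the shared receptor chain Il6st, from 15.1 to 9.36 FPKM, and of the kinases Jak1, from 15.6 to 9.06, and Tyk2, from 3.15 to 1.24. Jak2 at 4.69 and 4.01 FPKM passed neither test. Ptpn11 (Shp2), the phosphatase that links the receptor to ERK, was at 14.9 and 18.5 FPKM and passed upward only after rescaling (0.53; adjusted p = 0.00467). The relay list held 6 falls and 1 rise without control day 3 replicate 1. Lif itself, at 0.763 and 1.09 FPKM, was below the minimum for testing.

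Socs3, the feedback inhibitor that Stat3 induces, was at 37.6, 41.0 and 38.9 FPKM at day 0 and at 0.420, 0.794 and 0.505 at day 3. It stood at about 40 FPKM in all day 0 libraries and under 1 FPKM in all day 3 libraries, and its log2 fold change of -4.68 ± 0.20 (adjusted p = 3.06e-11) was among the 3 largest falls of all named genes. The other targets that fell were Klf4, Tcfcp2l1 (current symbol Tfcp2l1) and Gbx2, which are naive factors, the NF-kappaB cofactor Bcl3 (11 to 0.581 FPKM), the AP-1 subunit Junb (6.39 to 1.5) and the kinases Pim1 (21.2 to 7.75) and Pim3 (23.2 to 6.06). Socs2, another member of the Socs family, rose from 10.6 to 16.6 FPKM. Socs1, Cish and Osmr were below the minimum, and 4 of the 9 targets tested reached it only through day 0, where they were higher, so that these had to differ.

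The promoter window of Socs3 is shown because Socs3 is the classic feedback target of Stat3 and had 1 of the 3 largest falls. It runs from 250 bases before to 50 after the RefSeq start site, on the minus strand of chr11:117969317-117969616 in GRCm38.p6, and the capitals mark its match to the STAT-type motif TTCNNNGAA, 154 to 146 bases before the start.

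Socs3: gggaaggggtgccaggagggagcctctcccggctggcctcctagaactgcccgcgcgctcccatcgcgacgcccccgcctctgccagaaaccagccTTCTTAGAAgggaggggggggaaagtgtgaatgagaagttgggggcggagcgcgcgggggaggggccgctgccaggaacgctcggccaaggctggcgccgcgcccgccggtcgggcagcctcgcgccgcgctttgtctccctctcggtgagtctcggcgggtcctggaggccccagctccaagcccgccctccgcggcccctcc

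The motif, searched on both strands (it reads the same on each), was in 2726 of 32851 such windows (8.30%) and in 1 of the 8 targets that fell, which is Socs3. A match is a description of letters only, and no binding was measured.

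Of the 20 naive state genes, all tested, 19 fell. The median log2 fold change of these 19 was -2.73 after rescaling, against 0.0026 for all genes. Of the 20, 4 had a mean under 1 FPKM on their lower day, Klf4 and Prdm14 among them. These reached the minimum for testing only through the other day, so the filter itself favoured a difference in them. Klf4, a Stat3-driven factor of the naive network, was at 51.5, 50.7 and 54.8 FPKM at day 0 and at 0.629, 0.963 and 0.760 at day 3 (-4.91 ± 0.20; adjusted p = 1.65e-11). Tcfcp2l1, also downstream of Stat3, was at 43.8, 42.7 and 43.6 FPKM and then at 1.21, 1.55 and 2.08 (-4.10 ± 0.20; adjusted p = 2.00e-10). Both were far lower in all 3 embryoid body libraries than in any stem cell library. Tbx3, a T-box factor of the same network, went from 31.6, 27.1 and 29.2 FPKM to 0.560, 0.855 and 1.84 (-3.91 ± 0.23; adjusted p = 1.22e-09). Prdm14, which represses FGF signalling and the de novo DNA methyltransferases, went from 11.7, 10.6 and 9.45 FPKM to 0.373, 0.619 and 0.721 (-2.89 ± 0.20; adjusted p = 6.52e-09).

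Zfp42 (Rex1), the reporter gene most used for the naive state, was the most abundant of the group at day 0, at 420, 420 and 407 FPKM, and was at 20.2, 34.3 and 34.3 at day 3 (-3.81 ± 0.26; adjusted p = 6.63e-09). Unlike Klf4 it was still well above the minimum for testing in every day 3 library. Klf2 fell from 18.6 to 3.62 FPKM and Klf5 from 62.9 to 9.03, so all 3 of the Klf factors of this network fell. Fbxo15 fell from 137 to 10.9 FPKM, the adhesion protein Jam2 from 71.8 to 4.56, the secreted Spp1 from 153 to 10.4 and the nuclear receptor Nr5a2 from 16.0 to 1.79. The smallest falls in the group were those of Zfp704, from 5.99 to 3.52 FPKM, and Fgf4, from 53.4 to 24.9. The member left over is Esrrb, which was listed at 0 in all day 0 libraries of both lines and at 9.22, 13.6 and 13.3 FPKM in the control line at day 3. Esrrb was the single gene at 0 in every control day 0 library and at 5 FPKM or more in every control day 3 library. Because a listed 0 can be a failed estimate, no direction is given for it.

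The core factors shared by naive and formative cells moved less. Of 15 tested, 6 fell and 1 rose, with a median of -0.22 after rescaling, or 7 and 3 without control day 3 replicate 1. Nanog, which is lowered in formative cells, was at 276, 279 and 272 FPKM at day 0 and at 56.6, 91.7 and 95.8 at day 3 (-1.79 ± 0.26; adjusted p = 5.19e-05). Sox2 was at 149, 160 and 158 FPKM and then at 62.3, 85.4 and 89.4 (-0.98 ± 0.24; adjusted p = 0.00515). Pou5f1 (Oct4) was at 503, 520 and 493 FPKM and then at 249, 386 and 432. All 3 day 3 libraries lay below the day 0 range for each of these genes, but for Pou5f1 the difference passed only after rescaling, at -0.28 (adjusted p = 0.0101), and not as deposited, at -0.54 ± 0.29 (adjusted p = 0.164). Tdgf1 (Cripto), the Nodal co-receptor, fell from 585 to 180 FPKM, and Dppa2, Dppa4 and Dppa5a fell from 30.7 to 11.7, from 31.0 to 15.5 and from 388 to 191. The RNA-binding protein Lin28a was the member that rose, from 48.8, 43.2 and 46.2 FPKM to 85.9, 107 and 123 (1.16 ± 0.23; adjusted p = 0.00104). In the list of Lin28 and oncofetal RNA-binding genes, Lin28b, Hmga1 and Hmga2 rose as well and Igf2bp1 fell, 4 up and 1 down of 9, with a median of 0.67 after rescaling.

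**Figure D2:**
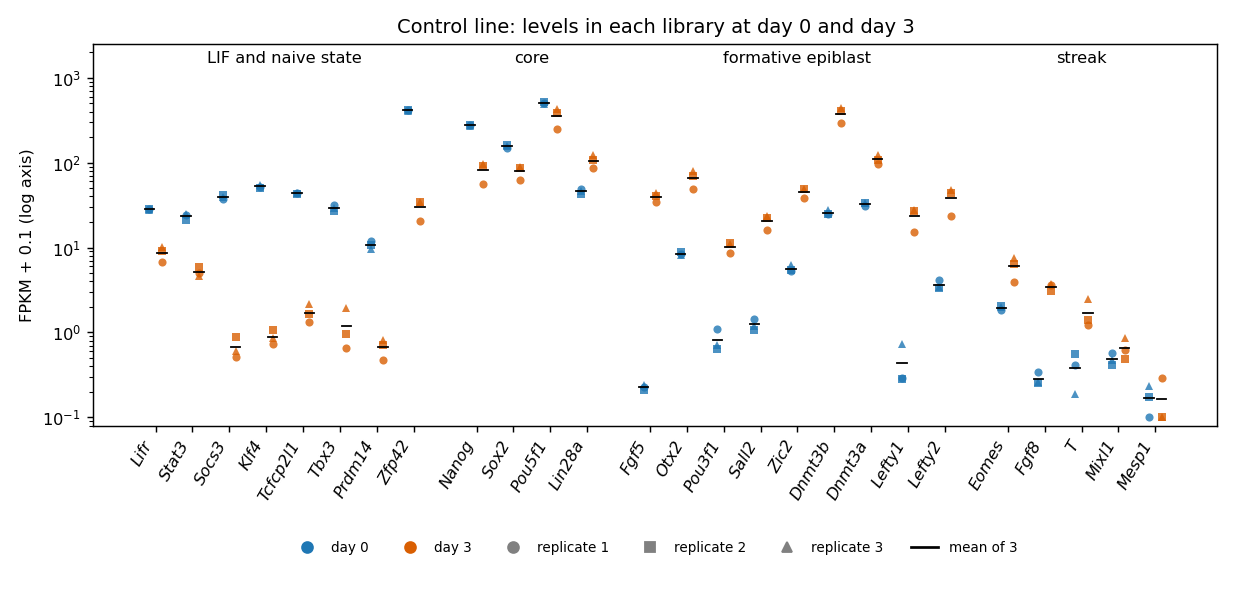
FPKM plus 0.1 of single genes on a log axis in each of the 6 control libraries, day 0 in blue and day 3 in orange, with the replicate given by the symbol and the mean of 3 by a bar. Klf4 goes from about 50 to under 1 FPKM and Fgf5 from under 0.2 to about 40, while Pou5f1 stays above 200 in every library and Mixl1 and Mesp1 stay under 1.

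The formative epiblast genes rose nearly throughout: 15 of 17 tested rose and 2 fell, with a median of 2.31 after rescaling, and the counts were the same without control day 3 replicate 1. Of the 17, 4 had a mean under 1 FPKM on their lower day, Fgf5 and Pou3f1 among them. These reached the minimum for testing only through the other day, so the filter itself favoured a difference in them. Fgf5, the growth factor that marks the epiblast after implantation, was at 0.128, 0.110 and 0.138 FPKM at day 0 and at 34.5, 40.6 and 44.3 at day 3 (5.17 ± 0.20; adjusted p = 1.22e-11). Otx2, the homeobox factor that redirects Pou5f1 to formative enhancers, was at 8.34, 8.68 and 8.11 FPKM and then at 48.5, 69.9 and 80.7 (2.81 ± 0.23; adjusted p = 6.04e-08). Pou3f1 (Oct6), a POU factor of the same state, was at 0.986, 0.533 and 0.614 FPKM and then at 8.58, 11.1 and 10.8 (2.71 ± 0.20; adjusted p = 1.83e-08). The days did not overlap in any of the 3, and the day 0 libraries held almost no Fgf5. The zinc-finger factor Sall2 rose from 1.14 ± 0.190 to 20.4 ± 4.07 FPKM (SD, n = 3), Zic2 from 5.56 ± 0.437 to 45.2 ± 6.03, and the epithelial factor Grhl2 from 2.28 to 22.2. Among the Sox genes of the list, Sox3 rose from 0.279 to 2.70 FPKM, Sox4 from 3.88 to 12.0 and Sox11 from 1.14 to 8.54. Among the members that fell was Tcf15, from 18.1 to 5.85 FPKM, a factor known as an early and passing mark of cells leaving the naive state.

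The de novo DNA methyltransferases rose and the dioxygenases Tet1 and Tet2 fell. Dnmt3b, a de novo methyltransferase, was at 24.5, 24.5 and 27.7 FPKM at day 0 and at 296, 401 and 440 at day 3 (3.82 ± 0.24; adjusted p = 3.04e-09), the second highest day 3 level among the 10 largest rises. Dnmt3a, the other de novo enzyme, was at 30.5, 33.7 and 33.8 FPKM and then at 95.9, 108 and 123 (1.70 ± 0.23; adjusted p = 1.66e-05). Their catalytically inactive partner Dnmt3l went the other way, from 97.8, 99.6 and 95.6 FPKM to 23.3, 34.3 and 33.9 (-1.67 ± 0.23; adjusted p = 3.05e-05). Of the Tet dioxygenases, which oxidise methylcytosine, Tet2 fell from 94.9 ± 5.78 to 7.46 ± 1.3 FPKM (SD, n = 3) and Tet1 from 99.4 to 37.6, whereas Tet3 was low at 1.55 and 2.32. The maintenance genes Dnmt1, at 90.4 and 70.6 FPKM, and Uhrf1, at 99.1 and 82.5, passed neither test. Tdg, a glycosylase that removes oxidised bases, rose from 1.01 to 2.04 FPKM, giving 3 up and 3 down of 9.

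In the Nodal pathway, 6 of 17 tested genes rose and 3 fell, with a median of 0.46 after rescaling. Of the 17, 2 had a mean under 1 FPKM on their lower day, Lefty1 among them. These reached the minimum for testing only through the other day, so the filter itself favoured a difference in them. The ligand Nodal was at 12.0, 11.5 and 11.7 FPKM at day 0 and at 9.87, 16.7 and 17.4 at day 3, values that overlapped, and passed only after rescaling (0.50; adjusted p = 0.00185). Its targets and feedback inhibitors Lefty1 and Lefty2 moved far more. Lefty1 was at 0.191, 0.179 and 0.622 FPKM and then at 15.1, 27.2 and 27.7 (4.16 ± 0.24; adjusted p = 1.15e-09), and Lefty2 was at 4.0, 3.25 and 3.35 and then at 23.7, 43.5 and 47.5 (3.06 ± 0.25; adjusted p = 5.58e-08). In both, every day 3 library was several times above every day 0 library. The Smad partner Foxh1 rose from 9.45 to 23.9 FPKM, the receptor Acvr2b from 4.23 to 8.37 and the Smad repressor Skil from 36.9 to 94.4. Beside the co-receptor Tdgf1, the convertase Pcsk6, which processes Nodal, fell from 9.73 to 3.06 FPKM, and the receptor Acvr1b from 11.6 to 6.19.

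In the FGF and ERK list 8 of 18 tested genes rose and 4 fell, with a median of 0.34. Of the 18, 3 had a mean under 1 FPKM on their lower day, Fgf5 and Fgf8 among them, and reached the minimum only through the other day. Among ligands Fgf5, Fgf8 and Fgf15 rose, the last from 3.05 to 17.7 FPKM, and the stem cell ligand Fgf4 fell. Among receptors Fgfr2 rose from 1.80 to 3.26 FPKM and Fgfr3 fell from 2.69 to 0.442. The feedback inhibitors did not move together. Dusp6, an ERK phosphatase, was at 13.4, 15.1 and 14.7 FPKM and then at 22.8, 32.2 and 40.1 (1.05 ± 0.23; adjusted p = 0.00217). Spry4, of the Sprouty family, was at 31.5, 31.1 and 33.3 FPKM and then at 9.34, 10.6 and 13.7 (-1.45 ± 0.21; adjusted p = 5.22e-05). Neither gene's days overlapped. Spry1, Dusp4 and Il17rd rose, the ETS factor Etv4 fell from 42.4 to 12.4 FPKM, and Spry2, Spred1, Spred2, Etv5 and Egr1 passed neither test.

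In the BMP list 3 of 11 tested genes fell and none rose: the ligand Bmp4, from 12.6, 11.4 and 9.84 FPKM to 1.03, 0.727 and 1.63 (-2.54 ± 0.21; adjusted p = 7.24e-08), the target Id1, from 27.3 to 13.7, and the ligand Bmp7, from 1.68 to 0.805. The call for Bmp7 was lost when any of 4 single libraries was left out, namely control day 0 replicates 1 and 2 and control day 3 replicates 1 and 2. The list's median was 0.20 after rescaling and -0.05 as deposited, and without control day 3 replicate 1 there were 2 rises and 2 falls. In the Wnt list 6 of 9 tested genes rose and 1 fell, with a median of 1.13 after rescaling. The nuclear factors Lef1 and Tcf7 rose, Lef1 from 1.12, 1.16 and 1.83 FPKM to 9.98, 10.6 and 13.3 (2.38 ± 0.21; adjusted p = 1.26e-07) and Tcf7 from 7.84 to 24.4 (means of 3). The general target Axin2 rose from 2.57 to 5.81 FPKM, Nkd2 from 1.31 to 2.77, the ligand Wnt8a from 0.0193 to 3.26 and Sp8 from 0.0717 to 1.98. Notum, a secreted Wnt inhibitor, fell from 1.77 to 0.369 FPKM. The streak ligand Wnt3 was at 0.0621 and 1.29 FPKM and, like 10 other members of the list, was below the minimum for testing. Of the 9 tested, 4 reached the minimum only through the day on which they were higher, so the count and median of this list are set in part by the filter.

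Primitive streak and lineage genes were for the most part too low to test. Of 17 streak genes 2 were tested. Eomes, a T-box factor, rose from 1.74, 1.95 and 1.87 FPKM to 3.88, 6.35 and 7.44 (1.24 ± 0.22; adjusted p = 0.000314). Fgf8, a growth factor of the streak, was at 0.245, 0.150 and 0.161 FPKM and then at 3.48, 2.95 and 3.62, and reached the minimum only through day 3, so that the filter itself favoured a difference. T (brachyury), the defining streak factor, was at 0.309, 0.451 and 0.0859 FPKM at day 0 and at 1.12, 1.3 and 2.35 at day 3, higher in every day 3 library but under the minimum. Mixl1 was at most 0.763 FPKM and Mesp1, the first factor of cardiac mesoderm, at most 0.187 in any library, and 12 of the 17 were under 1 FPKM in all 6.

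Markers of other cell types that an embryoid body could hold were checked as lists. In the cardiac mesoderm list 3 of 16 genes were tested, Nkx2-5 stood at 0.0368 and 0.119 FPKM, and only the myosin light chain Myl7 passed, falling from 3.47 to 0.880. Of the 3 tested, 2 reached the minimum only through their higher day, Myl7 among them, so the filter itself favoured a difference. Of the endoderm list's defining factors, Gata4 was at 0.745 and 0.883 FPKM, Gata6 at 0.315 and 0.250 and Sox17 at 0.135 and 0.148. Of its 7 tested members Dab2 (1.96 to 8.07 FPKM) and Cubn (0.690 to 4.06), both endocytic proteins, rose, and the matrix genes Lama1 (8.71 to 1.37) and Sparc (81.8 to 21.6) fell. The list summed to 131 to 140 FPKM in the day 0 libraries and 71.0 to 105 in the day 3 libraries. Trophoblast factors Cdx2, Elf5 and Gata3 had means under 1 FPKM on both days, while Tcfap2c (current symbol Tfap2c), Tead4 and Ascl2, which stem cells also express, fell, 3 of 3 tested. Ascl2, at 2.69 and 0.715 FPKM, and Cubn likewise reached the minimum only through their higher day. In the neural list 3 of 6 tested rose and 2 fell, and the neuronal genes did not move together. Nes rose from 3.54 to 11.3 FPKM, and the neuronal genes Tubb3 (13.6 to 3.31) and Ncam1 (12.9 to 2.33) fell. The neuronal gene Mtap2 (current symbol Map2) rose from 1.88 to 3.86 FPKM, a call lost without control day 0 replicate 3 or control day 3 replicate 2. Fibroblast genes other than Thy1 were under 1 FPKM in all 6 libraries, the 10 of them summed to 3.25 to 5.99 FPKM at day 0 and 3.55 to 5.04 at day 3, and none passed. Of the pluripotent markers, Pou5f1 was at 505 and 356 FPKM and Utf1 at 25.7 and 35.6. The other markers of this set fell, Sox2 from 156 to 79.0 FPKM, Nanog from 276 to 81.4 and Zfp42 from 416 to 29.6.

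Many epithelial genes rose. Of 16 tested in the epithelial and mesenchymal list, 8 rose and 3 fell, with a median of 0.78 after rescaling. The splicing regulator Esrp1, which sets epithelial isoforms, was at 1.28, 1.29 and 0.968 FPKM at day 0 and at 13.2, 19.8 and 19 at day 3 (3.06 ± 0.21; adjusted p = 7.23e-09). The tight-junction protein Cldn6 was at 9.09, 6.86 and 7.03 FPKM and then at 43.4, 60.5 and 69.1 (2.74 ± 0.23; adjusted p = 8.36e-08). In both the days were well apart. Epcam rose from 45.3 to 149 FPKM, Krt18 from 9.48 to 41.9, and Cldn3 and Cldn7 rose as well. Cdh1 (E-cadherin), at 78.9 ± 1.88 and 99.1 ± 8.55 FPKM (SD, n = 3), passed only after rescaling (0.58; adjusted p = 0.00669), and Cdh2 (N-cadherin) rose from 0.905 to 2.14, a call lost without control day 3 replicate 2. Of the mesenchymal members Vim fell from 57.7 to 15.9 FPKM and Zeb1 from 11.1 to 1.59, Zeb2 rose from 1.09 to 2.5, and Snai1, Snai2 and Twist1 were below the minimum. The keratin Krt19 fell from 2.22 to 0.742 FPKM. In the list of actin, SRF and YAP target genes 7 of 14 rose and none fell, with a median of 0.98: the actin-binding Tagln rose from 1.73 to 16.1 FPKM, the calponin Cnn1 from 0.423 to 6.45, the myosin light chain Myl9 from 1.60 to 12.1, tropomyosin Tpm1 from 65.4 to 159, and Acta2, Actg1 and Ctgf rose less. Actb, at 918 and 807 FPKM, passed neither test.

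Metabolic lists are to be read against all genes tested, of which 20.3% fell and 8.61% rose with all libraries. Without control day 3 replicate 1, 3008 of the 12202 genes fell and 2358 rose. In the hypoxia and glycolysis list 13 of 25 tested fell and 1 rose, with a median of -0.62 after rescaling. Pfkp, a phosphofructokinase isoform, was at 139, 140 and 126 FPKM at day 0 and at 10.6, 17.8 and 20.1 at day 3 (-3.03 ± 0.25; adjusted p = 7.24e-08), with a wide gap between the days. The hexokinases Hk1 (22.7 to 6.92 FPKM) and Hk2 (120 to 37.4), the neuronal-type glucose transporter Slc2a3 (355 to 111), and the hypoxia-inducible Vegfa (27.7 to 5.22), Ndrg1 (8.31 to 0.850) and Bnip3 (19.4 to 5.90) fell. Other glycolytic genes did not pass: Slc2a1 was at 168 and 153 FPKM, Ldha at 215 and 203, Tpi1 at 84.0 and 85.2. The single rise was that of Gapdh, whose 4.16 and 6.53 FPKM are uncertain, since its many processed pseudogenes can share its reads. Without control day 3 replicate 1, 15 fell and 4 rose. Among nuclear respiratory chain genes 8 of 20 fell and none rose, with a median of -0.42. They included Cox5a (77.4 to 28.6 FPKM), Cox6c (270 to 124) and Ndufb8 (195 to 85.3). Without control day 3 replicate 1, 14 of the 20 fell. Of the 11 tested protein genes of the mitochondrial genome 2 fell, mt-Nd4 and mt-Co3, and both calls were lost without control day 0 replicate 2 or control day 0 replicate 3, that of mt-Nd4 also without control day 3 replicate 2.

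The amino acid and ATF4 response list held 10 falls and no rise among 13 tested, with a median of -0.88 after rescaling, and the counts were the same without control day 3 replicate 1. Asns, asparagine synthetase, was at 345, 336 and 322 FPKM at day 0 and at 46.0, 63.7 and 77.6 at day 3 (-2.43 ± 0.26; adjusted p = 1.3e-06). The regulator Atf4 fell from 208 to 97.6 FPKM, its partner Ddit3 (Chop) from 11 to 4.42, and the responsive genes Trib3 and Chac1 from 6.67 to 1.70 and from 5.76 to 1.36. The serine and glycine enzymes Psat1 (118 to 42.3 FPKM) and Shmt2 (64.4 to 25.0) fell too, while Phgdh, Ddit4 and Slc3a2 passed neither test. Sterol synthesis genes leaned upward: 2 of 14 rose, Sqle (19.4 to 35.6 FPKM) and Cyp51 (18.5 to 31.9), with a median of 0.58, and 13 of 14 were higher after rescaling. The 2 calls were lost when any of several single libraries was left out, namely control day 0 replicates 2 and 3 and control day 3 replicates 2 and 3 for both, and control day 0 replicate 1 for Cyp51, and without control day 3 replicate 1 the number that rose was 9.

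Germline genes that stem cells express fell: 9 of 12 tested fell and 1 rose, with a median of -1.42 after rescaling. Stra8, a retinoic acid-induced gene needed to enter meiosis, was at 28.3, 34.1 and 32.1 FPKM at day 0 and at 0.336, 0.646 and 0.701 at day 3 (-4.38 ± 0.20; adjusted p = 7.12e-11). It reached the minimum for testing only through day 0, so the filter itself favoured a difference. The RNA-binding protein Dazl fell from 15.4 to 2.71 FPKM, the germ cell factor Sohlh2 from 18.9 to 3.25, the transposon-silencing gene Tex19.1 from 24.1 to 4.73 and the testis ribosomal protein Rpl10l from 24.4 to 3.93. Dppa3 (Stella), which is also in the naive list, fell from 11.4 ± 1.49 to 3.39 ± 1.48 FPKM (SD, n = 3). The rise was that of Sycp3, a protein of the synaptonemal complex, from 22.4 to 45.3 FPKM. Of the genes that mark the rare 2-cell-like cells of stem cell cultures, Zscan4c was at 2.00 and 0.204 FPKM and Zscan4d at 1.80 and 0.227. Both reached the minimum only through day 0, so that their difference is given as a description, and these near-identical copies share reads, which makes their separate values uncertain.

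Among imprinted genes 9 of 20 tested rose and 3 fell, with a median of 0.56. The gene that the files name Snrpn, whose identifier a newer annotation gives as Gm38393, rose from 19.9 to 78.3 FPKM, the zinc-finger gene Peg3 from 5.80 to 18.0 and the neuronal proteolipid gene Nnat from 3.12 to 14.9. The maternal noncoding RNAs of 1 cluster rose together, Meg3 from 9.85 to 18.3 FPKM, Rian from 33.6 to 72.5 and Mirg from 4.89 to 12.5, with the call for Meg3 lost without control day 0 replicate 3. Those that fell were Phlda2, Peg10 and Mcts2. Polycomb genes held 4 falls and no rise in 15 tested, among them Mtf2 from 202 to 73.0 FPKM, Eed from 132 to 59.0 and Jarid2 from 217 to 98.9, while the catalytic Ezh2, at 80.1 and 69.5, passed neither test. Over all genes tested 20.3% fell and 8.61% rose, so the count of Polycomb falls is near the share of all genes. The Polycomb list's median was 0.03 after rescaling and -0.22 as deposited. Without control day 3 replicate 1 there were 10 rises and 5 falls of imprinted genes and 3 rises and 5 falls of Polycomb genes. Among known long noncoding RNAs 3 of 11 tested fell and 1, Meg3, rose, or 4 and 4 without that library. Those that fell were Neat1, from 6.71 to 1.5 FPKM, Tsix, from 2.17 to 1.05, a call lost without control day 0 replicate 2 or 3, and 4930500J02Rik (Platr14 in a newer annotation), at 46.7, 49.5 and 48.0 FPKM at day 0 and 11.1, 16.8 and 18.5 at day 3 (-1.61 ± 0.23; adjusted p = 3.86e-05). Tsix runs antisense to Xist, and the strand used in counting is not given in the sources used here.

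Among the D-type cyclins, which drive cells out of G1, Ccnd3 fell and Ccnd2 and Ccnd1 rose. Ccnd3 was at 41.6, 37.6 and 43.7 FPKM at day 0 and at 6.49, 7.88 and 7.88 at day 3 (-2.32 ± 0.21; adjusted p = 1.70e-07), while Ccnd2 rose from 0.844 to 3.43 FPKM and Ccnd1 from 14.1 to 28.9. The proliferation genes Mki67 (75.4 and 90.9 FPKM), Top2a (373 and 304) and Mcm2 (126 and 131) did not pass as deposited. Myc rose from 2.70 to 7.0 FPKM and the inhibitor Cdkn1c from 4.68 to 8.28, making 4 up and 1 down of 21, with a median of 0.19 after rescaling, or 7 up and 4 down without control day 3 replicate 1. Of 13 p53 targets Pmaip1 (Noxa) rose from 14.0 to 27.9 FPKM and Perp (16.0 to 5.46) and Mdm2 (92.1 to 55.7) fell, with Mdm2 lost when any 1 of the day 0 libraries was left out, and Cdkn1a stood at 4.44 and 4.58. With all libraries the p53 counts, 1 up and 2 down, were no higher than the shares of all genes tested, 8.61% and 20.3%. Without control day 3 replicate 1, 3 of the 13 rose and 4 fell, to be read against 2358 rises and 3008 falls among all 12202 genes. Of 8 tested immediate-early genes, which respond within minutes to growth factors or handling, Fos, Junb and Atf3 fell and none rose. Fos and Atf3 reached the minimum for testing only through day 0, so the filter itself favoured a difference in them. Fos was at 10.1, 9.83 and 11 FPKM at day 0 and at 0.226, 0.291 and 0.402 at day 3 (-3.12 ± 0.19; adjusted p = 1.98e-09), a gap far wider than the spread within either day.

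**Figure D3:**
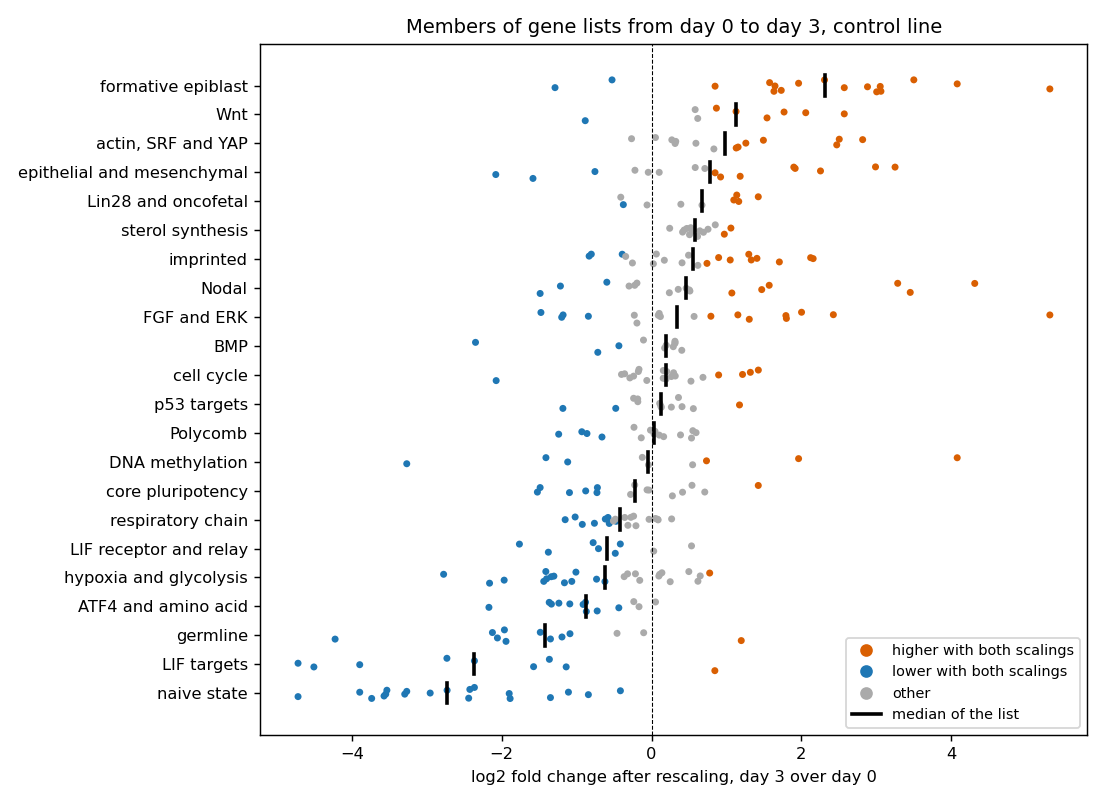
Each point is a tested member of a gene list, placed by its log2 fold change from day 0 to day 3 after rescaling, with lists ordered by their median (bar) and Esrrb left out of the naive list. Naive state and LIF target genes lie at the low end with medians of -2.73 and -2.36, and formative genes at the high end with a median of 2.31.

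Several of the largest changes were outside these lists or were secreted and membrane proteins with no set place in the pluripotency network. Enpp2 (autotaxin), a secreted enzyme that makes lysophosphatidic acid, had the largest rise of the named protein-coding genes, from 0.0509, 0.0686 and 0.0958 FPKM to 33.1, 50.1 and 54.0 (5.42 ± 0.22; adjusted p = 1.65e-11). Trh, the precursor of thyrotropin-releasing hormone, was at 26.1, 27.2 and 26.3 FPKM and then at 261, 476 and 534 (3.88 ± 0.28; adjusted p = 1.14e-08), the highest day 3 level among the 10 largest rises. Within day 3 both were lowest in replicate 1, which was still far above every day 0 library. Enpp2, like Sema6a, Vrtn, Fgf5 and Lefty1 below, reached the minimum for testing only through day 3. The filter itself favoured a difference in these genes. The carbonic anhydrases Car4 (1.90 ± 0.603 to 59.1 ± 10.3 FPKM) and Car14 (1.53 ± 0.251 to 43.8 ± 13.7), the transmembrane semaphorin Sema6a (0.236 ± 0.0844 to 20.6 ± 1.62), the kinase Pim2 (1.55 ± 0.172 to 40.4 ± 4.79) and vertnin, Vrtn (0.334 ± 0.215 to 25.4 ± 4.74), made up the rest with Fgf5, Lefty1 and Dnmt3b (SD, n = 3).

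Mras, a small GTPase of the RAS family, had the largest fall of the named genes, from 67.9, 70.3 and 66.4 FPKM to 0.343, 0.359 and 0.285 (-5.70 ± 0.19; adjusted p = 3.75e-12). Inhbb, the activin B subunit, was at 20.2, 20.7 and 20.6 FPKM and then at 0.140, 0.166 and 0.108 (-4.24 ± 0.19; adjusted p = 4.69e-11). Both went from above 20 FPKM to well under 1 in all 3 day 3 libraries. Like 2410004A20Rik below, they reached the minimum for testing only through day 0, so the filter itself favoured a difference. Aqp3, a water and glycerol channel, fell from 50.8 ± 2.12 to 1.19 ± 0.182 FPKM, the fast muscle myosin light chain Mylpf from 79.6 ± 9.99 to 3.45 ± 1.38, the calcium-binding S100a6 from 39.8 ± 4.18 to 1.59 ± 0.538 and 2410004A20Rik (current symbol Khdc3, a maternal-effect gene) from 30.4 ± 3.22 to 0.740 ± 0.0639 (SD, n = 3).

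The levels at later days place day 3 on the control line's course, with the limit that each day is again a table of its own and that no test across later days was made. Pou3f1, Lefty1, Enpp2 and Dnmt3b had their highest mean of the 6 days at day 3: Enpp2 was at 45.7 ± 11.1 FPKM at day 3 and 13.2 ± 0.965 at day 5 (SD, n = 3), and Pou3f1 at 10.2 ± 1.38 and 2.27 ± 0.214. Fgf5 was higher at day 5, at 61.4 ± 8.19 FPKM, than at day 3, at 39.8 ± 4.99. The streak genes that were low at day 3 peaked at day 5: T at 64.2 ± 15.6 FPKM, Eomes at 70.7 ± 11.2, Mixl1 at 15.2 ± 2.45 and Mesp1 at 16.2 ± 2.23. Pou5f1 went from 356 ± 95.0 FPKM at day 3 to 158 ± 16.9 at day 5 and 26.0 ± 1.72 at day 8. Some falls were not lasting: Lifr was back at 22.1 ± 2.91 FPKM at day 5, Stat3 at 21.1 ± 1.21 at day 12, Vegfa at 83.5 ± 10.6 at day 10, and Ccnd3 at 52.8 ± 2.72 at day 12, whereas Socs3 and Klf4 stayed at or below 5.19 and 2.83 on every later day.

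**Figure D4:**
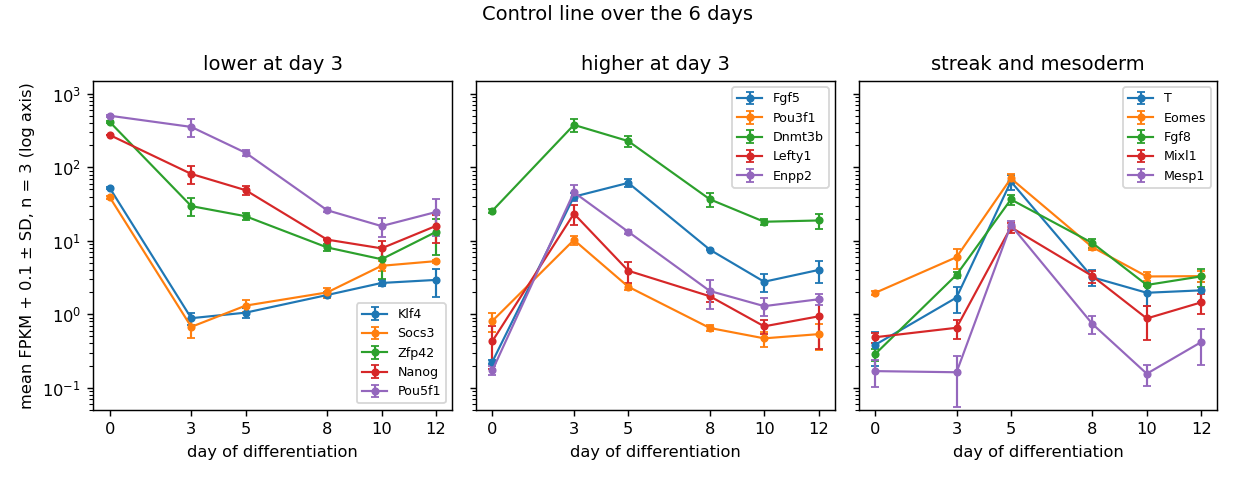
Mean FPKM plus 0.1 of the control line on a log axis at days 0, 3, 5, 8, 10 and 12, with bars of 1 SD over 3 libraries, for genes lower at day 3 (left), genes higher at day 3 (middle) and streak and mesoderm genes (right). Pou3f1, Lefty1, Enpp2 and Dnmt3b are highest at day 3, and T, Eomes, Fgf8, Mixl1 and Mesp1 are highest at day 5.

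Whether the knockout line changed differently from day 0 to day 3 was tested as the interaction of line and day over 12 libraries. Of 12235 genes tested, 68 (0.556%) passed limma's test as deposited, 59 (0.482%) with a higher and 9 (0.0736%) with a lower change in the knockout line. After rescaling 367 (3%) passed, 204 higher and 163 lower, and 67 (0.548% of those tested) passed in both scalings. The median difference of all genes tested was 0.16 as deposited and 0.0021 after rescaling, so the deposited split includes an upward shift of all genes. At an unadjusted p of 0.05 the deposited values gave 1407. The number as deposited ranged from 8 to 217 when single libraries were left out, 8 without knockout day 0 replicate 2 and 217 without control day 3 replicate 1. The genes given first kept their calls in at least 10 of the 12 removals of a single library.

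Meis2, a TALE homeobox factor, rose in the control line, from 1.73, 0.700 and 1.86 FPKM to 4.87, 6.35 and 5.08. In the knockout line it was at 2.88, 2.57 and 3.85 FPKM and then at 1.2, 2.59 and 1.01, so the knockout change was lower by -2.13 ± 0.33 on the log2 scale (adjusted p = 0.0135), a call kept in all 12 removals. Gja1 (connexin 43), a gap junction protein, went from 8.39 ± 0.798 to 89.6 ± 11.4 FPKM in the control line and from 10.3 ± 1.59 to 34.7 ± 9.23 in the knockout line (SD, n = 3), a difference of -1.63 ± 0.26 (adjusted p = 0.0152) kept in 10 of 12 removals. Both genes ended higher in every control library than in any knockout library, while at day 0 Meis2 was lower in every control library and Gja1 overlapped.

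Epha4, an ephrin receptor, fell from 30.8 ± 0.476 to 3.79 ± 0.449 FPKM in the control line and went from 10.8 ± 0.578 to 5.68 ± 0.959 in the knockout line, a difference of 1.91 ± 0.20 (adjusted p = 0.000956) kept in all 12 removals. Here the lines differed most at day 0. Psmb8, an immunoproteasome subunit, went from 0.101 ± 0.104 to 3.82 ± 1.18 FPKM in the control line and from 0.0767 ± 0.0844 to 16.0 ± 1.77 in the knockout line, a difference of 1.87 ± 0.25 (adjusted p = 0.00715) kept in all 12. For 4930500J02Rik the difference of 1.67 ± 0.24 (adjusted p = 0.00933), also kept in all 12, has no meaning as a change, because the knockout line was listed at 0 in 5 of its 6 libraries and at 0.137 FPKM in the other. Otx2 went from 8.38 ± 0.291 to 66.3 ± 16.4 FPKM in the control line and from 4.58 ± 0.597 to 99.7 ± 6.34 in the knockout line, a difference of 1.36 ± 0.24 (adjusted p = 0.0239), but its call was kept in 4 of 12 removals only.

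**Figure D5:**
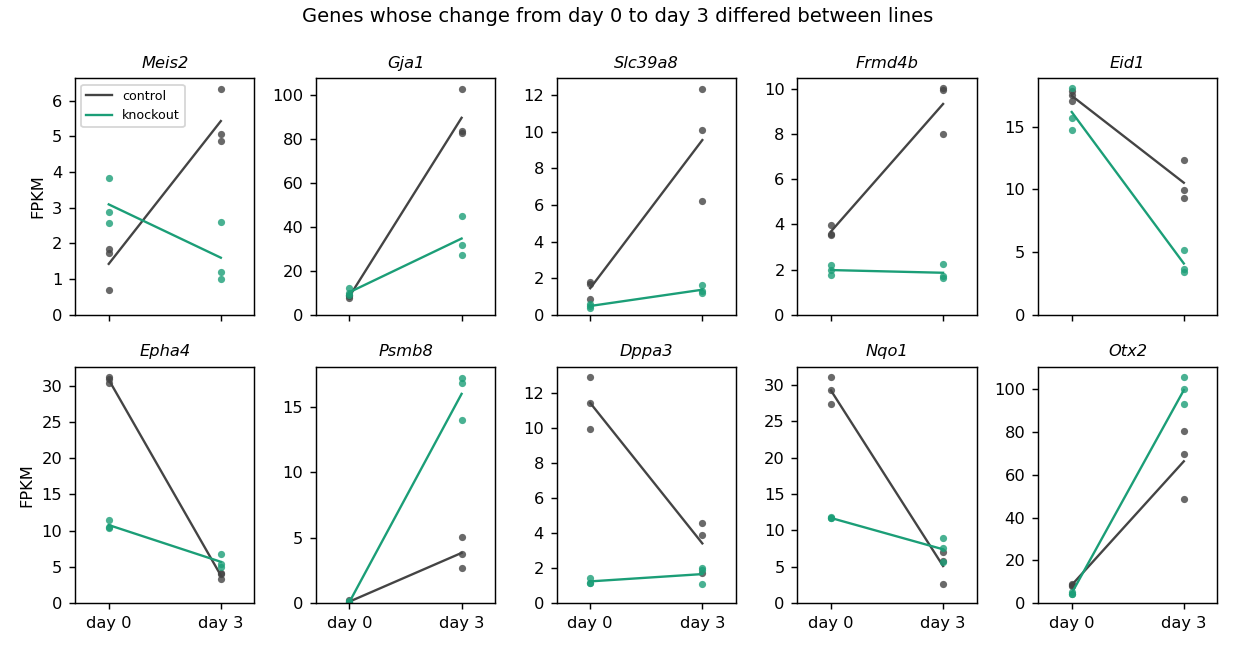
FPKM of 10 genes whose day 0 to day 3 change differed between lines, with a point for each library, a line through the means of 3, the control line in grey and the knockout line in green. Meis2, Gja1, Slc39a8, Frmd4b and Eid1 end higher in the control line, and Psmb8 and Otx2 end higher in the knockout line.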

How the data were processed

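RNA was sequenced from undifferentiated cells and whole embryoid bodies as ribosome-depleted total RNA (ScriptSeq Complete Gold, per the labels' protocols). FPKM per gene were deposited by the authors in 1 table for each day, which holds both lines. The submitters' processing notes name TopHat, Cufflinks and mm9. Their versions, settings, strand and whether the tables were normalized together are not given in the sources used here. No counts are given, so depth was read only as a relative step size, and the precision of single values is unknown.

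Genes averaging at least 1 FPKM across the 6 control libraries of days 0 and 3 were tested on log2(FPKM + 1) with limma 3.58.1 (eBayes with trend, two-sided, R 4.3.3), with Benjamini-Hochberg adjustment over all genes tested and a threshold of 0.05. The fit was checked on simulated data. Ptpru lay just inside the minimum, and Ufsp1 and Hspb2 just outside. 661 genes below the minimum reached 1 FPKM on 1 of the days. Median-ratio rescaling used 12091 genes. The change was compared with that of the knockout line as an interaction over 12 libraries.

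The 35 gene lists and the members were chosen with earlier results of these data known. Genes were named by rule: the 10 largest rises and falls past both scalings with no overlap between days and at least 5 FPKM on the higher day (small RNAs, predicted genes and pseudogenes left out), up to 4 of each list by adjusted p, a panel, and the 5 highest and lowest interaction terms. Other list members are given with their list, chosen after their values were seen. Alternatives were another pseudocount, other minima, no trend, a common total, a spread pooled over 36 libraries, a replicate block, and each library left out. Rescaling without control day 3 replicate 1 was added after seeing the data. The Socs3 window is from RefSeq (GRCm38.p6). A few items are not reported here.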

Additional observations from a re-analysis of the deposited data

Results flagged for a closer look

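Of the genes named by rule, 14 changed differently from day 0 to day 3 in the knockout line than in the control line. The test was limma's interaction test with Benjamini-Hochberg adjustment over 12235 genes, of which 68 (0.556%) passed. The 5 lowest and 5 highest of the 14 were named because they had passed, so the count of 14 is set in part by that choice. The 14 are given here by the knockout change minus the control change on the log2(FPKM + 1) scale. The difference was negative for Meis2 at -2.13, Gja1 at -1.63, Slc39a8 at -1.41, Frmd4b at -1.20 and Eid1 at -1.08. Slc39a8, a zinc transporter, went from 1.45 to 9.54 FPKM in the control line and from 0.481 to 1.37 in the knockout line, and its call was kept in 1 of 12 removals of a single library. Frmd4b went from 3.69 to 9.33 FPKM and from 1.98 to 1.86, and its call was kept in 5. Eid1 went from 17.5 to 10.5 FPKM and from 16.2 to 4.09, and its call was kept in 2.

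The difference was positive for Epha4 at 1.91, Psmb8 at 1.87, Dppa3 at 1.78, Nqo1 at 1.78, 4930500J02Rik at 1.67, Atf3 at 1.47, Otx2 at 1.36, Meg3 at 1.32 and Aqp3 at 1.02. Dppa3 fell from 11.4 to 3.39 FPKM in the control line and was at 1.23 and 1.64 in the knockout line, so that the lines differed at day 0, and its call was kept in 5 of 12 removals. Nqo1, a quinone reductase, went from 29.2 to 5.07 FPKM in the control line and from 11.7 to 7.38 in the knockout line, and its call was kept in 4. Atf3 was at 1.79 and 1.89 FPKM in the knockout line, Meg3 at 4.54 and 23.1, and Aqp3 at 31.6 and 1.79. Their calls were kept in 3, 4 and 3 of 12 removals. The causes of these differences were not tested.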

How the results depend on the processing

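No named gene reversed its direction under any alternative run, while both counts of calls moved. The 3755 genes called as deposited became 5975 with median-ratio rescaling, 5938 with a common total outside short and mitochondrial RNA, 5917 with rescaling without control day 3 replicate 1 (an alternative chosen after seeing the data), 5789 with the spread pooled over 36 libraries, and 2331 with a minimum of 5 FPKM, which tests 8083 genes. Leaving out 1 library gave 2833 to 5552. The split moved from 1067 higher and 2688 lower to 2743 and 3195 with the common total and to 2368 and 3184 without control day 3 replicate 1. The 68 genes whose change differed between lines became 367 with rescaling, 391 with rescaling without control day 3 replicate 1, 30 with the minimum of 5 FPKM and 8 with no filter. Leaving out 1 library gave 8 to 217: 11, 14 and 14 without control day 0 replicates 1, 2 and 3, 217 and 121 without control day 3 replicates 1 and 3, 11, 8 and 20 without knockout day 0 replicates 1, 2 and 3, and 19 and 17 without knockout day 3 replicates 1 and 2. With 2 libraries left in a group, their spread was taken from the fit of all groups. Deviations of same-numbered libraries from their day means correlated at 0.032, 0.047 and -0.0081, and those of differently numbered libraries at -0.048 to 0.011. With 3 libraries a day these values cannot show whether shared replicate numbers paired the libraries. With a replicate block 3614 genes passed in the control line, 3457 of them among the 3755, and 95 in the test between lines, and of the named genes only Nr4a1 lost its call. Nr4a1 and mt-Nd3 passed as deposited but not after rescaling, and Pou5f1, Cdh1 and Nodal only after rescaling. The causes were not tested.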

Other observations

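Small RNAs and multi-copy genes are given as values only. Of 1378 small nucleolar RNA entries 95 were tested, 36 rose and 3 fell, and 1186 were at 0 in all 6 libraries. Without control day 3 replicate 1, 40 rose and 6 fell. They took 0.394% to 0.917% of the summed FPKM at day 0 and 1.61% to 1.81% at day 3, and how such short RNAs were kept in the libraries was not tested. SNORD81 was at 0, 1.60 and 4.38 FPKM at day 0 and at 77.5, 136 and 150 at day 3. Of 61 tested clustered histone genes, which have near-identical copies, 11 rose and 1 fell, and 29 rose without control day 3 replicate 1. Of 78 ribosomal protein genes, whose pseudogenes can take reads, 3 rose and 4 fell, and 19 rose and 5 fell without that library. Without it, 2358 of all 12202 genes tested rose and 3008 fell. Rpl39l, a testis-type copy, fell from 16.5 to 4.90 FPKM, next to the fall of Rpl10l.

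By chromosome, the median log2 fold change of each of the 19 autosomes lay between -0.072 and 0.050 of that of all other genes after rescaling. Outside that range lay chromosome X, at 0.103 over 482 genes, chromosome Y, at 0.329 over 3 genes, and the mitochondrial genome, at -0.334 over 13.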
